A study of Mus musculus with 6 samples.

Results

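The interferon regulatory factors (IRFs) were read in bone marrow cells of wild-type (WT) mice and of mice with the NUP98-HOXD13 fusion (NHD13). The family was taken as the rows of the deposited count table named Irf1, Irf2, Irf3, Irf4, Irf5, Irf7, Irf8 and Irf9, which are 8 of its 17523 rows. The cells came from C57BL/6 marrow, were sorted by FACS and are described in the series as hematopoietic stem cells. There were 3 libraries labelled wild type and 3 labelled NHD13 mutant. The sources used here do not give the sort markers, the promoter that drives the fusion, the age of the mice or whether each library is a separate animal. What the p-values measure is thus the spread among libraries, which may be technical.

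IRFs are transcription factors that share an amino-terminal DNA-binding domain and bind sites containing the bases GAAA. Irf8 and Irf4 act mainly in blood lineage choice: Irf8 directs progenitors to monocytes and dendritic cells and away from neutrophils, and Irf4 acts in lymphocytes, plasma cells and some dendritic cells. Irf1, Irf7 and Irf9 are induced by interferons, Irf9 being the DNA-binding part of the STAT-containing complex that switches on interferon-stimulated genes. Irf3, Irf5 and Irf7 are activated by kinases downstream of receptors for foreign nucleic acids, and Irf2 competes with Irf1 for the same sites. Irf4 and Irf8 are called lineage IRFs below, and Irf1, Irf7 and Irf9 interferon-induced IRFs. These names only label the comparison and do not exclude a response of Irf4 or Irf8 to interferon.

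The libraries held between 12541538 and 14388772 counts. The row named for the fusion was at 0 in every WT library and at 11.5 to 13.9 TMM-scaled CPM (a gene's share of the library's counts on the usual per-million scale) in NHD13, as the labels state. The 10 stem cell marker genes summed to 455 to 477 CPM in WT and 276 to 327 CPM in NHD13. Most of this was Kit (means 254 CPM in WT and 226 CPM in NHD13) and Cd34 (175 and 47.0 CPM). In WT, Procr, Fgd5, Hoxb5, Mecom and Slamf1 had means of only 0.0511 to 1.07 CPM. Ctnnal1, Hlf and Ly6a had WT means of 3.48 to 18.5 CPM. Granulocyte precursor markers had far more RNA (12604 to 16310 CPM over 6 genes in WT, 8650 to 16243 CPM in NHD13). Mature neutrophil markers were higher still (31058 to 47788 CPM over 9 genes in WT, 21332 to 29609.6 CPM in NHD13). Of the NHD13 libraries, replicate 1 lay nearest to WT: over the 3638 genes past the threshold, its level stood a median of 64.0% of the way from the WT mean to the mean of NHD13 replicates 2 and 3. Y-linked RNA, made in male cells, also differed, at 0.0109% to 0.0194% of counts in WT and 0.0177% to 0.028% in NHD13. Xist, made in female cells, was at 462 to 1077 CPM in WT, 2.55 and 1.95 CPM in NHD13 replicates 1 and 2 and 683 CPM in NHD13 replicate 3. Every WT library and NHD13 replicate 3 thus held both, as a mix of male and female animals would. Sex make-up therefore partly went with genotype, and their effects cannot be fully told apart here.

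In NHD13, 3 members fell (Irf8, Irf5 and Irf1) and 1 rose (Irf7), while Irf2, Irf3 and Irf9 did not pass the test and Irf4 was too low to be tested. Calls are at an adjusted p under 0.05 in edgeR's quasi-likelihood test with Benjamini-Hochberg adjustment over 12013 genes. Against these 3 lower and 1 higher of 7 tested members stand 15.3% lower and 15% higher among all genes tested. The median log2 change was -0.06 over the 7 members and 0.00 over all genes. All 7 tested members had more than the minimum count in every library, so none entered the test through 1 group. Libraries of the groups did not overlap for Irf1, Irf4, Irf5, Irf7 and Irf8, where 46.1% of all tested genes showed no overlap. Each of these 5 reached an exact permutation p of 0.1 over the 6 libraries, the smallest that 3 against 3 allows (two-sided).

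**Figure D1:**
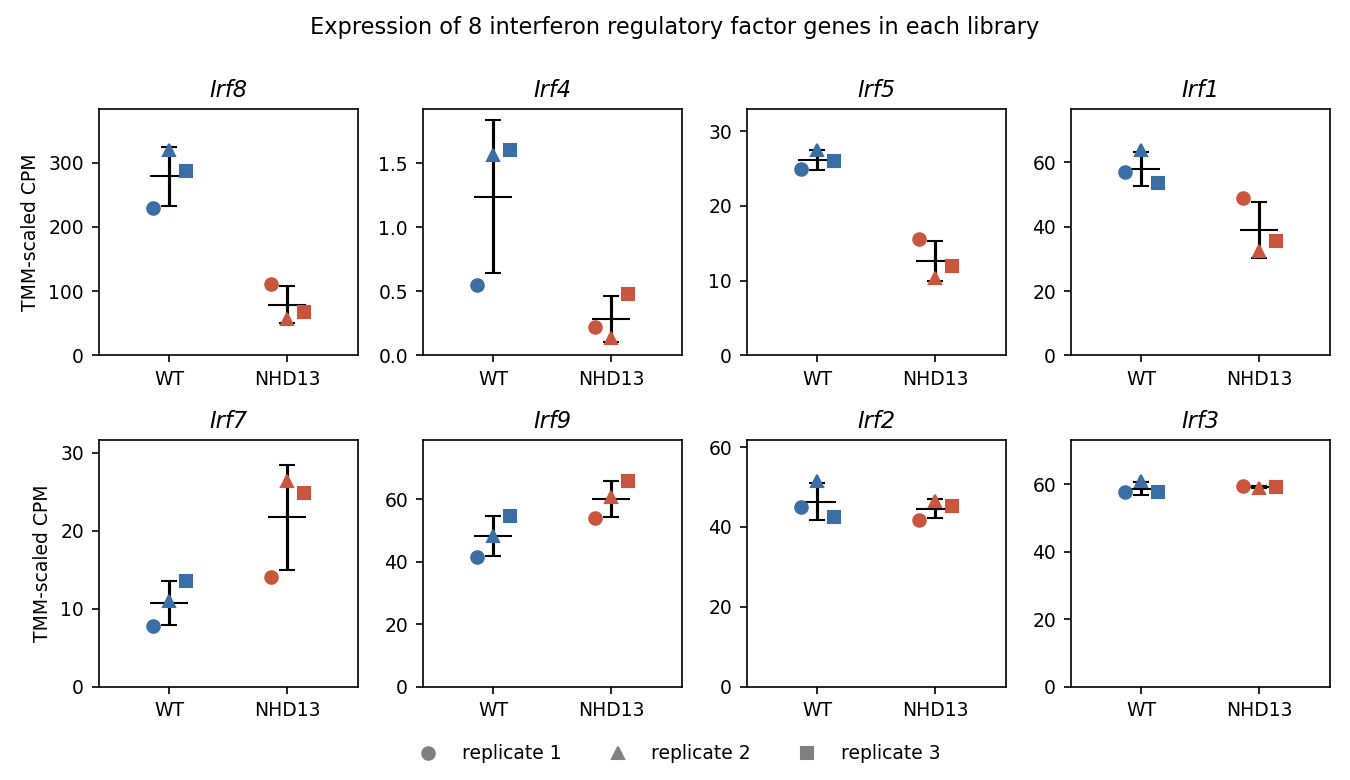
TMM-scaled CPM (y axes, from 0, a separate scale for each gene) of the 8 family members in 3 WT (blue) and 3 NHD13 (red) libraries. Symbols mark the replicate, horizontal lines the mean and bars 1 SD. Irf8, Irf4, Irf5 and Irf1 lie lower and Irf7 higher in every NHD13 library, and NHD13 replicate 1 (circle) is the NHD13 library nearest to WT for Irf8, Irf5, Irf1 and Irf7.

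Irf8 was the most abundant member in WT and had the largest change of the 7 tested members. It lies at mm10 chromosome 8, 120736358 to 120756694. Its level was 229.5, 319.6 and 287 CPM in WT replicates 1, 2 and 3 and 112, 57.2 and 68.2 CPM in NHD13 replicates 1, 2 and 3. Every NHD13 library was far below WT replicate 1, the lowest of its group, and NHD13 replicate 1 was the highest of its group. The mean went from 279 CPM ± 45.6 to 79.0 CPM ± 28.9 (SD, n = 3 each), a 3.53-fold fall (log2 -1.82, SE 0.23, edgeR adjusted p = 0.00139). Of the 12013 tested genes, 325 had a larger change in either direction. Leaving out any 1 library kept the call, with log2 changes from -2.15 to -1.64. Under a Y-linked covariate (the share of counts on Y genes) the change was -1.59 and did not pass (adjusted p = 0.0734).

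Irf4, the other lineage IRF, was near the detection limit. On chromosome 13 (30749226 to 30766976), it had 7, 21 and 23 counts in WT and 3, 2 and 7 counts in NHD13. In CPM, NHD13 replicate 3 (0.483) came close to WT replicate 1 (0.553). The summed 51 and 12 counts correspond to a ratio of WT to NHD13 of 4.43 with a 95% counting interval of 2.33 to 9.14 (Clopper-Pearson, counting error only). Only 2 WT libraries reached 10 counts, so the filter set Irf4 aside. Without a filter its log2 change was -2.10 (edgeR adjusted p = 0.0134). Where omitting 1 library let it through the filter, it did not pass without NHD13 replicate 2 (log2 -1.79, edgeR adjusted p = 0.0858). It passed without WT replicate 1, NHD13 replicate 1 or NHD13 replicate 3 (edgeR adjusted p = 0.0127, 0.0183 and 0.0304). In these fits with a filter Irf4 entered through WT.

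Irf5, which carries signals from Toll-like receptors in myeloid and B cells, fell as well. It is at chromosome 6, 29526625 to 29541871. WT libraries were at 24.9, 27.5 and 26.04 CPM and NHD13 libraries at 15.6, 10.4 and 11.9 CPM. The WT libraries were tightly grouped, and all 3 NHD13 libraries were well below them. The means were 26.1 CPM ± 1.29 and 12.7 CPM ± 2.65, a 2.07-fold fall (log2 -1.05, SE 0.15, edgeR adjusted p = 0.00197). The call held when any 1 library was left out, but not under the Y-linked covariate (log2 -0.96, adjusted p = 0.0823). Exons of Irf5 overlap those of Tnpo3 on the other strand over 411 bases. Tnpo3 was at 164 and 177 CPM, and whether counting used strand is unknown here, so part of the Irf5 count is uncertain.

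**Figure D2:**
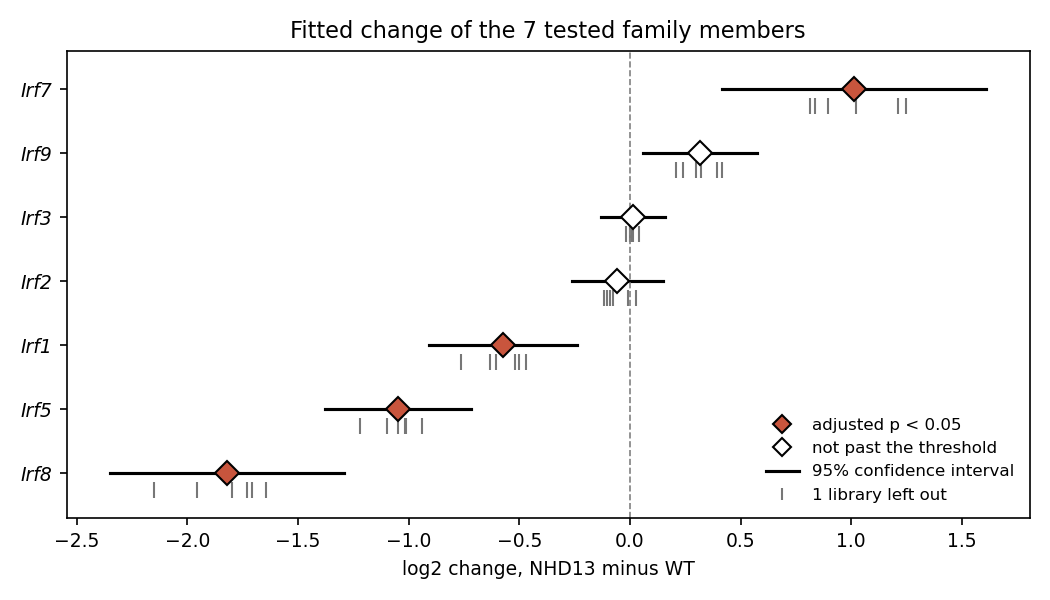
Fitted log2 change of NHD13 against WT (x axis) for the 7 tested members, with 95% confidence intervals (lines) and the values with 1 library left out (grey ticks below). Filled symbols passed the threshold: Irf8 at -1.82, Irf5 at -1.05 and Irf1 at -0.57 lie left of 0 and Irf7 at 1.01 right of it.

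The 3 interferon-induced IRFs did not move together. Irf7, the amplifier of type I interferon production, rose. At chromosome 7 (141262706 to 141266481), it was at 7.82, 10.9 and 13.5 CPM in WT and at 14.01, 26.3 and 24.9 CPM in NHD13. NHD13 replicate 1 exceeded WT replicate 3 only narrowly, and the other two NHD13 libraries stood clear of WT. The means were 10.8 CPM ± 2.85 and 21.7 CPM ± 6.73, a 2.02-fold rise (log2 1.01, SE 0.26, edgeR adjusted p = 0.0213). Omitting single libraries ended the call in 4 of 6 cases, with an adjusted p of 0.0689 and 0.0796 for WT replicates 1 and 2 and of 0.0791 and 0.0695 for NHD13 replicates 2 and 3. It also ended without the low-count filter (0.0553) and with the Y-linked covariate (0.114). The log2 change lay between 0.81 and 1.35 in all 16 alternatives. Exons of Irf7 and of Phrf1, which also rose (107 to 129 CPM, adjusted p = 0.0157), overlap by 45 bases on opposite strands.

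Irf1, an inducer of antigen-presentation genes under interferon gamma, went the other way. At chromosome 11 (53770014 to 53778374), it was at 56.9, 63.8 and 53.4 CPM in WT and 48.9, 32.5 and 35.6 CPM in NHD13. NHD13 replicate 1 was close to WT replicate 3, and replicates 2 and 3 were lower. The means were 58.0 CPM ± 5.27 and 39.0 CPM ± 8.69, a 1.49-fold fall (log2 -0.57, SE 0.15, edgeR adjusted p = 0.0201). The call depended on single libraries: the adjusted p was 0.0506, 0.0875 and 0.0512 without WT replicates 1, 2 and 3, and 0.0695 and 0.0704 without NHD13 replicates 2 and 3. Without NHD13 replicate 1 the log2 change was -0.76 (adjusted p = 2.27e-05), and with the Y-linked covariate it was -0.56 (adjusted p = 0.22). Its exons share 135 bases with Gm17334 on the other strand, which has no row in the table.

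Irf9 was at 41.7, 48.4 and 54.7 CPM in WT and at 54.1, 60.7 and 65.8 CPM in NHD13. The groups overlapped, since WT replicate 3 exceeded NHD13 replicate 1. The log2 change was 0.32 (SE 0.11, 95% confidence interval 0.06 to 0.58) and did not pass after adjustment (edgeR adjusted p = 0.0629). It passed in 4 of 16 alternatives, among them without NHD13 replicate 1 (log2 0.39, adjusted p = 0.00734), without replicate 1 of both groups (0.00617) and without the low-count filter (0.0466). Irf9, on chromosome 14 (55603571 to 55610030), shares 123 exonic bases with Rnf31 on the same strand, which was at 37.3 and 43.0 CPM.

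The constitutive members Irf2 and Irf3 showed no difference larger than the spread between libraries. Irf3, the kinase-activated factor that starts interferon beta transcription, was at 57.7 to 60.9 CPM in WT and 58.9 to 59.7 CPM in NHD13. Its log2 change of 0.01 had a 95% confidence interval of -0.13 to 0.16 and changed sign under upper-quartile scaling (-0.031). Irf2 was at 42.5 to 51.4 CPM in WT and 41.8 to 46.5 CPM in NHD13 (log2 -0.06, interval -0.26 to 0.15, edgeR adjusted p = 0.666). Irf3 (chromosome 7, 44997648 to 45002848) shares 88 exonic bases with Bcl2l12 on the other strand, and no annotated gene overlaps the exons of Irf2 (chromosome 8, 46739732 to 46847458).

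Lineage and interferon-induced members were then compared within each library, as the mean log2 CPM of Irf4 and Irf8 minus that of Irf1, Irf7 and Irf9. This difference was -1.08, -0.48 and -0.61 in WT replicates 1 to 3 and -2.38, -3.22 and -2.57 in NHD13 replicates 1 to 3, with no overlap. It moved by -2.001 between the group means, by -1.76 through the lineage pair and by 0.24 through the induced trio. Since the members were chosen with results of these data known, no p is given for it. With 1 library left out it ranged from -2.18 to -1.75. With Irf8 alone in place of the pair it was -2.10.

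The induced trio had a small mean change because its members differed in sign. Their summed CPM was 106 to 123 in WT and 117 to 126 in NHD13. The ratio of Irf8 to Irf7 shows the 2 largest opposite changes within a library. There were 29.4, 29.2 and 21.3 Irf8 counts per Irf7 count in WT replicates 1 to 3, against 7.97, 2.17 and 2.74 in NHD13 replicates 1 to 3. NHD13 replicate 1 again stood between WT and the rest of its group.

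Levels of different members were compared per kilobase of exon (RPKM, from the TMM-scaled CPM and all annotated exons). In WT the order was Irf8 (39.5 RPKM ± 6.47), Irf3 (17.1 ± 0.542), Irf1 (14.6 ± 1.32), Irf5 (8.99 ± 0.443), Irf9 (8.97 ± 1.21), Irf2 (6.26 ± 0.62), Irf7 (2.85 ± 0.755) and Irf4 (0.253 ± 0.121). Of these neighbours only Irf5 and Irf9 overlapped between libraries. In NHD13 the order was Irf3 (17.2 RPKM ± 0.116), Irf8 (11.2 ± 4.09), Irf9 (11.2 ± 1.09), Irf1 (9.8 ± 2.19), Irf2 (6.02 ± 0.328), Irf7 (5.76 ± 1.78), Irf5 (4.36 ± 0.913) and Irf4 (0.0576 ± 0.0366). Here Irf8, Irf9 and Irf1 overlapped, and Irf7 overlapped both Irf2 and Irf5. By this measure Irf8 stood above every other member in all WT libraries and below Irf3 in all NHD13 libraries. In CPM, Irf8 was above Irf3 in NHD13 replicates 1 (112 against 59.7) and 3 (68.2 against 59.3). It was below Irf3 in NHD13 replicate 2 (57.2 against 58.9). The order and the shares below thus depend on the length used, which may differ from that of the transcripts expressed.

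The make-up of the family changed accordingly. Of the summed RPKM of the 8 members, Irf8 held 39.9% ± 2.72 in WT and 16.9% ± 4.99 in NHD13, at 22.5%, 13.2% and 14.9% in NHD13 replicates 1 to 3. Irf7 held 2.88% ± 0.641 and 8.92% ± 3.2, and Irf9 9.11% ± 0.964 and 17.1% ± 2.48. The sum itself was 98.5 RPKM ± 9.77 in WT and 65.6 RPKM ± 4.4 in NHD13, so a larger share is not by itself a higher level: Irf3 went from 17.4% to 26.3% of the sum while its RPKM means were 17.1 and 17.2.

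**Figure D3:**
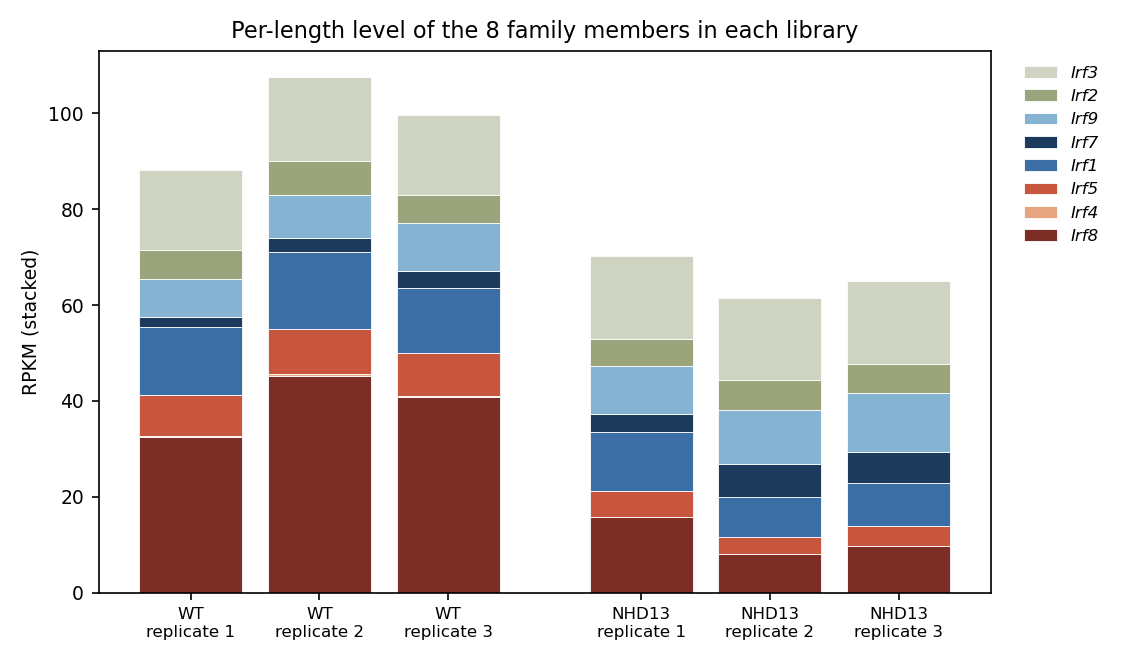
RPKM of the 8 members stacked for each of 3 WT and 3 NHD13 libraries (y axis, RPKM from 0). Irf8 (dark red) fills the lower 32.5 to 45.3 RPKM of the WT bars and 8.11 to 15.8 RPKM of the NHD13 bars, and Irf4 is too low to be seen.

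Promoter sequence is shown for the members whose changes differ in sign or size. Windows of 300 bases, from 250 before to 50 after an annotated start, come from RefSeq (GRCm38.p6) and matched all 8 members in 11 windows. They were searched on both strands for GAAANNGAAA, the core of the interferon-stimulated response element, for TTCNNNGAA, the gamma-activated site bound by STAT dimers, and for GGAANNGAAA, a composite site of an ETS factor with an IRF. The first and the third can share bases. In the sequences below, written 5′ to 3′ on the strand of the gene, capitals mark these matches. Irf8, which had the largest fall of the tested members, has 2 gamma-activated sites in its first window (chr8:120736108-120736407, plus strand). Irf1 has 1 such site (chr11:53769764-53770063, plus strand), and the risen Irf7 has no match in its window (chr7:141266375-141266674, minus strand). Irf5, which also fell, has no match either, and the windows of Irf3, Irf4 and Irf9 have none. Irf2, which did not pass the test, holds all 3 motifs, shown in the first 40 bases of its window (chr8:46739495-46739534, plus strand).
Irf8: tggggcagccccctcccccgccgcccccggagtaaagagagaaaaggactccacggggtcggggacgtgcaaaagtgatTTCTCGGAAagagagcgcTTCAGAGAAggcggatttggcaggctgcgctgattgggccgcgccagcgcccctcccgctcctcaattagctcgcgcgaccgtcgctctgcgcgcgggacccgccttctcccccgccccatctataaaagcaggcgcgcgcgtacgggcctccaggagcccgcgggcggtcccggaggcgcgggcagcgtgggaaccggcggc
Irf1: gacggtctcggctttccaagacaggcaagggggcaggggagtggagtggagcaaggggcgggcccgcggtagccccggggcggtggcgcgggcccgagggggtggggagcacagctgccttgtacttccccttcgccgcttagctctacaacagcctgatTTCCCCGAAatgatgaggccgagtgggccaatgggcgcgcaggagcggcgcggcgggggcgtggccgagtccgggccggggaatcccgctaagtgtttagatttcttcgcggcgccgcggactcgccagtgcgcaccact
Irf7: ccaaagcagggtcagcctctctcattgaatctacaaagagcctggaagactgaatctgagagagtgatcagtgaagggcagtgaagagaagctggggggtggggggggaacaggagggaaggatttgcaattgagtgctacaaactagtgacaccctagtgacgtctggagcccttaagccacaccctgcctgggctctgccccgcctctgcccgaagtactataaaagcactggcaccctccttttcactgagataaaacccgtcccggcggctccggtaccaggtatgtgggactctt
Irf2: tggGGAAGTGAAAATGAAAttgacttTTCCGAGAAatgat

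The gamma-activated site occurred in 3 of the 11 member windows, those of Irf1, Irf2 and Irf8, and in 8.3% of all 32851 windows. The Irf8 matches begin 171 and 153 bases before the start and the Irf1 match 90 bases before it. The response element core was found for Irf2 alone, as against 3.44% of all windows, and it shares 4 bases with the composite match, which 2.72% of all windows hold. A match of letters is a description and was not tested against binding.

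The genes upstream of the family were read next. Of 10 interferon ligand genes looked up, only Ifng and Ifnk had rows, with at most 1 count per library. Of 11 genes for interferon receptors, their kinases and STATs, 5 fell and 0 rose by edgeR, against 15.3% lower and 15% higher among all genes (0 rose also at an unadjusted p under 0.05 and by DESeq2). The 5 encode receptor chains, Il10rb among them. For Ifngr2, a chain of the interferon gamma receptor, the means were 47.4 CPM ± 2.38 and 30.6 CPM ± 4.6 (adjusted p = 0.00495). The type I receptor genes Ifnar1 and Ifnar2 fell 1.34-fold each. Ifnlr1, of the lambda receptor, went from 24.7 CPM ± 5.51 to 14.9 CPM ± 0.193. Stat2, a partner of Irf9, was at 48.7 to 54.7 CPM in WT and at 48.2 to 55.3 CPM in NHD13 and did not pass (adjusted p = 0.879). With the Y-linked covariate 0 of the 11 were called in edgeR, and 3 were lower at an unadjusted p under 0.05.

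Among 23 sensors, adaptors and kinases that act on Irf3, Irf5 and Irf7, 6 fell and 2 rose. These counts stand beside 15.3% lower and 15% higher among all genes. Among the genes that fell were the nucleic acid receptor genes Tlr3 (1.57 CPM ± 0.467 to 0.21 CPM ± 0.117), Tlr8 (4.73 CPM ± 0.995 to 1.48 CPM ± 0.41) and Tlr9, and Unc93b1, the chaperone of these receptors, which went from 215 CPM ± 19.8 to 126 CPM ± 25.8 (adjusted p = 0.00504). Ticam2, the adaptor of Tlr4, fell 2.14-fold, and Tmem173, which encodes STING, fell as well (adjusted p = 0.0079). Tlr3 passed the low-count filter through WT only. The cytosolic RNA sensor gene Ifih1 (log2 0.39) and its adaptor Mavs (log2 0.24) rose, and Tlr7 (log2 -0.68, adjusted p = 0.0757) and the kinase gene Tbk1 did not pass. The counts were larger without NHD13 replicate 1, where 13 fell and 4 rose. None rose when replicate 1 or 2 of WT, or replicate 2 or 3 of NHD13, was omitted. With the Y-linked covariate 0 were called in edgeR, while 7 lower and 3 higher had an unadjusted p under 0.05.

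Of 13 tested partners and coregulators of IRF proteins, 3 fell and 1 rose, against 15.3% lower and 15% higher among all genes. The ETS factor gene Spib, a partner of Irf4 and Irf8 in B cells and plasmacytoid dendritic cells, was at 0.711, 5.51 and 4.53 CPM in WT and at 0.974, 0.695 and 0.829 CPM in NHD13. WT replicate 1 was as low as the NHD13 libraries, and the groups overlapped (adjusted p = 0.0354). The Spib call was lost without the filter (0.0922), in limma-voom (0.145) and with the Y-linked covariate (log2 -0.27, adjusted p = 0.864). It was also lost when any 1 library other than WT replicate 1 was omitted (adjusted p from 0.0922 to 0.14). Bcl6 and Ikzf3 fell 1.56-fold and 2.31-fold, and Tcf3 rose from 144 CPM ± 13.4 to 221 CPM ± 38.0 (adjusted p = 0.00878). Spi1, listed by its older symbol Sfpi1 and encoding PU.1, the main partner of Irf8 in myeloid cells, was at 182 to 223 CPM in WT and 138 to 185 CPM in NHD13 and did not pass (log2 -0.35, adjusted p = 0.0529). Without WT replicate 2 or WT replicate 3 only 1 partner fell, without NHD13 replicate 1 there were 5, and with the Y-linked covariate 0 were called in edgeR (1 higher and 1 lower unadjusted). Batf3, a partner in dendritic cells, had 0 counts in all NHD13 libraries and 0.316 to 0.557 CPM in WT.

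Interferon-stimulated genes, the main targets of Irf9 and Irf7, moved in both directions. Of 47 tested, 14 rose and 9 fell, with a median log2 change of 0.18, as against 15% higher and 15.3% lower among all genes. Those that rose include the oligoadenylate synthetase family member Oasl1 (5.32 CPM ± 1.03 to 21.4 CPM ± 6.18, adjusted p = 0.00117), Isg15 (1.9 to 3.9 CPM in WT, 7.04 to 10.5 CPM in NHD13), Rsad2, Oas2, and Ifi27, listed as Ifi27l1 (28.4 CPM ± 2.64 to 57.6 CPM ± 3.53, adjusted p = 0.000261). Those that fell include the immunoproteasome subunit genes Psmb8 (1.67-fold) and Psmb9 (log2 -0.42), and Ifitm1, Ifitm2 and Ifitm3, which encode membrane proteins that block virus entry. Isg15, Rsad2, Oas2, Psmb9, Ifitm1 and Ifitm3 were named after their values were seen. The count of higher genes was 6 without NHD13 replicate 2 or NHD13 replicate 3, 7 without WT replicate 2 and 8 when WT replicate 1 was omitted, and that of lower genes was 5 without WT replicate 2 or WT replicate 3. With the Y-linked covariate 5 rose and 0 fell (15 and 5 at an unadjusted p under 0.05).

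**Figure D4:**
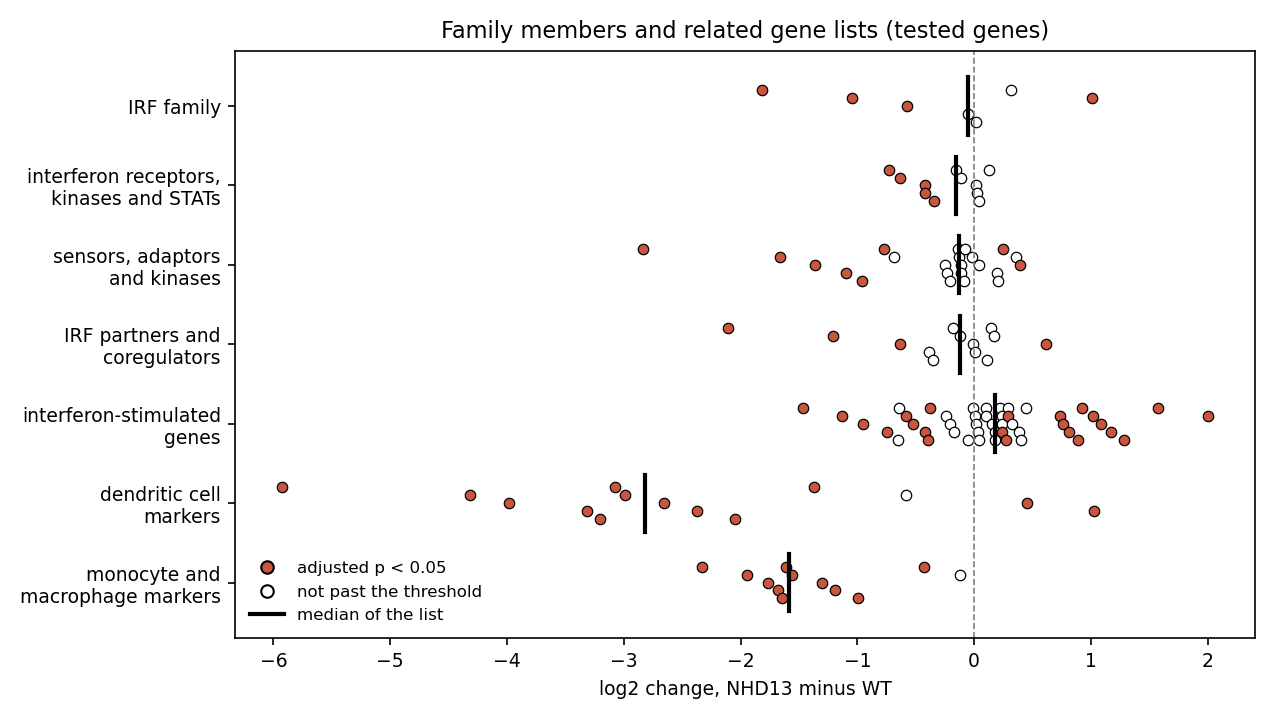
Log2 change of NHD13 against WT (x axis) for the tested genes of the family, 4 related pathway lists and 2 marker lists. Each circle is 1 gene (filled, past the threshold) and the black bar is the list median, at 0.18 for interferon-stimulated genes, -2.82 for dendritic cell markers and -1.59 for monocyte and macrophage markers. Of the 14 dendritic cell markers, 7 entered the test through WT.

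Most tested markers of the monocytes and dendritic cells that use Irf8 fell beside it. Of 12 tested monocyte and macrophage markers 11 fell (median log2 -1.59), against 15.3% lower and 15% higher among all genes. The 14 genes in the table summed to 2128 to 2495 CPM in WT and 987 to 1460 CPM in NHD13. None of the 14 was at 0 in a whole group. Csf1r, the receptor of the monocyte growth factor, was at 104 to 135 CPM in WT and 30.8 to 49.6 CPM in NHD13 and was named after its values were seen. Ccr2, a monocyte chemokine receptor, went from 162 CPM ± 32.7 to 32.2 CPM ± 1.19 (adjusted p = 5.53e-05). Of the 12, 6 fell with the Y-linked covariate.

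Among all genes tested 15.3% were lower and 15% higher, which stands beside each marker count below. Of 14 tested dendritic cell markers 11 fell and 2, Zbtb46 and Tcf4, rose. Their summed level was 171 to 251 CPM in WT and 87.5 to 111 CPM in NHD13, and no marker was at 0 in a whole group. For 7 of the 14 not all NHD13 libraries reached the minimum of the filter, so they entered the test through WT. Of the 7 that reached it in both groups, 5 fell and 2 rose. The 5 were Flt3, Cd74, H2-Aa, H2-Ab1 and H2-Eb1. With the Y-linked covariate 6 of these markers fell and 0 rose (11 and 2 unadjusted), and with a minimum count of 30, which tests fewer genes, 7 fell. Cd74, the chaperone of MHC class II, went from 33.3 CPM ± 7.8 to 3.32 CPM ± 0.776 (adjusted p = 6.39e-05). B-lymphoid markers summed to 27.3 to 41.4 CPM and 16.2 to 19.0 CPM, with 5 of 7 tested lower and Ms4a1 at 0 in NHD13. Of these 7, 5 entered the test without reaching the minimum in all NHD13 libraries, and only 2 reached it in both groups. Only 3 fell without WT replicate 2, WT replicate 3 or NHD13 replicate 2, and 0 with the Y-linked covariate (3 unadjusted). Basophil and mast cell markers summed to 265 to 587 CPM and 48.9 to 73.8 CPM, with 6 of 6 lower. Of these, 5 reached the minimum in both groups, and Fcer1a (0, 1 and 1 counts in NHD13) entered the test through WT. Granulocyte precursor markers, of the lineage opposed to Irf8, had 0 of 6 past the threshold by edgeR and by DESeq2 (1 lower at an unadjusted p under 0.05, 1 lower by limma-voom), and 5 were lower without NHD13 replicate 1. Mature neutrophil markers, of the same lineage, fell in 7 of 9 cases (median log2 -0.66). That count was 2 without WT replicate 2 or WT replicate 3, 0 by edgeR without NHD13 replicate 1 (2 lower unadjusted) and 0 with the Y-linked covariate (0 unadjusted). In these bulk libraries, fewer cells of a type and less RNA per cell cannot be told apart. The part of these cell types in the fall of Irf8, Irf5 and Irf1, and in the lower counts of Irf4, was not tested.

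The genes most like each called member were found by the root mean square difference of log2 CPM over the 6 libraries, each gene centred on its own mean. For Irf8 these were Tpm4 (0.072), Rnf122 (0.0935) and the monocyte marker Ms4a6c (0.103). Tpm4, a tropomyosin gene, was at 58.7 to 73.9 CPM in WT and 14.04 to 24.4 CPM in NHD13, with NHD13 replicate 1 highest of its group, as for Irf8. For Irf5 they were Dlg3 (0.0346), Slain1 (0.0542) and H2afy (0.0556). For Irf1 they were Cd274 (0.0393), which encodes the checkpoint ligand PD-L1, Slc43a2 (0.0441) and Adamts10 (0.049). For Irf7 they were Tlcd1 (0.0845), the heme synthesis gene Uros (0.11) and Cdr2 (0.11). Erythroid markers, which summed to 1005 to 1135 CPM in WT and 1175 to 2099.9 CPM in NHD13, rose in 4 of 7 cases against 15% of all genes (7 without NHD13 replicate 1, and 0 by edgeR with the Y-linked covariate, where 5 were higher unadjusted). Their part in the rise of Irf7 was not tested. These values describe likeness in 6 libraries that fall into 2 groups.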

How the data were processed

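RNA was measured in 6 libraries of sorted marrow cells. The deposited table holds raw, whole-number counts of reads per gene symbol. The submitters' processing notes name the tools Bowtie2 (2.2.1) and HTSeq (0.5.4p3) and the mm10 build. Annotation, strand setting and any read filters were not stated. The members, the gene lists and the tests were chosen with earlier results of these data known.

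Counts were tested across the whole table with edgeR 4.0.16 in R 4.3.3 (filterByExpr with a minimum count of 10, which set 5510 rows aside; TMM scaling; estimateDisp, robust glmQLFit, glmQLFTest; group as the only term). Two-sided p-values had Benjamini-Hochberg adjustment over 12013 genes, with a threshold of 0.05. Standard errors were obtained from the log2 change and F, as their size over the root of F. Log2 CPM used a prior count of 2. The script was tested on simulated data. Gene positions and exon lengths are those of GENCODE vM21 (GRCm38, which is mm10). Of the list genes, 6 were found by an older symbol in the RefSeq table and 10 had no row.

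Named genes are the members, up to 4 genes of each list with the lowest p, and the 3 genes most like each called member. Other names were chosen after their values were seen. Alternatives were DESeq2 1.42.0 size factors and test, upper-quartile and total-count scaling, other filters, limma-voom 3.58.1, the replicate number as a block, the Y-linked share (Ddx3y, Eif2s3y, Kdm5d, Uty) as a covariate, and leaving out libraries.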

Additional observations from a re-analysis of the deposited data

How the results depend on the processing

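The direction of Irf1, Irf5, Irf7, Irf8 and Irf9 held in all 16 alternatives. Irf8 and Irf5 passed the threshold in 15 of 16 each, Irf1 and Irf7 in 10 and Irf9 in 4. Irf3 changed sign to -0.031 under upper-quartile scaling, -0.013 with a minimum count of 30, -0.0039 without replicate 1 of both groups, -0.017 and -0.0016 when WT replicate 1 or 3 was omitted, and ranged from -0.017 to 0.040 with 1 library left out. Irf2 ranged from -0.116 to 0.026, changing sign without WT replicate 2. With the Y-linked covariate 0 members were higher and 0 lower in edgeR (2 and 2 at an unadjusted p under 0.05), with 111 genes higher and 175 lower in all; the covariate leaves fewer residual degrees of freedom. Without replicate 1 of both groups 2 members were higher and 3244 and 3246 genes were higher and lower. Leaving out 1 library gave 0 to 2 members higher and 2 to 4 lower, and 760 to 3012 genes higher and 957 to 2966 lower. The lineage difference ranged from -2.35 to -1.75 over 12 alternatives. With the replicate block 2 members were higher, Irf9 being added (adjusted p = 0.0103), and 2007 genes were higher and 2233 lower. The replicate numbers were not taken as pairs in the main fit. Deviations from the group means correlated at 0.249, 0.0632 and 0.175 for the same-numbered replicates 1, 2 and 3. Each WT library correlated best with its own number, and these values do not settle whether the numbers pair the libraries. The cause of these changes was not tested. Depth limits Irf4, where 3 counts correspond to 0.208 to 0.239 CPM.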
